A study of Mus musculus with 12 samples.

Results

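The 6 livers described here are the wild-type (WT) C57BL/6 mice of a mouse RNA sequencing study of the liver, 6 of its 12 libraries, chosen by the genotype given in their labels. The mice were 6 to 8 weeks old, their livers were flash frozen on dry ice, and total RNA was extracted with the miRNeasy kit. TruSeq RNA libraries were then prepared, each from 1 ug. The other 6 libraries are livers of A1cf -/- mice of the same strain, A1cf being an RNA-binding protein that acts in Apob mRNA editing, and they enter no value below. Each library is called by the number in its title: WT 573, WT 590, WT 601, WT 776, WT 777 and WT 778. Where 6 values are listed, they follow that order. The labels give neither sex nor feeding state, and they do not say whether the mice shared a litter or a cage, so every spread below covers only these 6 samples.

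The hepatocyte, the main cell type of the liver, secretes most plasma proteins, packages lipids into lipoproteins, makes bile acids, disposes of ammonia as urea and metabolises foreign compounds. Many of its transcripts follow signals from outside the cell. In the acute phase response, cytokines such as interleukin-6 raise the transcripts of serum amyloid A, haptoglobin and related plasma proteins. Fasting acts in part through the nuclear receptor PPARalpha on genes of fatty acid oxidation, low sterol acts through SREBP2 on cholesterol synthesis, and the pulses of growth hormone in males act on genes such as the major urinary proteins.

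The libraries held 25898171 to 40597491 fragments assigned to genes, the deepest being WT 573, and 16412 of the 46882 gene names had at least 1 fragment in every library. The limit that a count of 0 allows, 3 counts, was 0.0739 CPM in the deepest library and 0.116 CPM in the shallowest, counting error only. Values in CPM were scaled by TMM factors of 0.965 to 1.04. No pair of libraries differed as little as repeat counts of 1 library would: chi-square per degree of freedom ran from 15.2 for WT 777 with WT 778 to 234 for WT 573 with WT 590. A1cf itself was at 47.6 to 53.1 CPM. All 6 libraries had Ddx3y, a gene of the Y chromosome, at 22.4 to 49.99 CPM, and Xist, which females express from the inactive X chromosome, at no more than 0.216 CPM.

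The transcripts that mark liver were high in every library. Alb, which encodes serum albumin (chr5:90460897-90476602 of mm10), was at 81031, 61072, 60935, 75519, 69638 and 62574 CPM. Apoa1, the main protein of high density lipoprotein (chr9:46228580-46230466), was at 10896, 10122, 12654, 14110.3, 11928 and 10400.4 CPM, and Apob, the structural protein of very low density lipoprotein (chr12:7977648-8016835), at 4976, 5360.1, 4861, 5137, 5049 and 5303 CPM. The 10 hepatocyte markers together held 11.1% ± 1.08 of fragments (SD, n = 6). Marker lists of other cell types held far less: 0.0293% for stellate cells and fibroblasts, 0.0250% for endothelium, 0.0190% for Kupffer cells and macrophages, 0.000752% for T and NK cells and 0.000544% for neutrophils and monocytes. Only 3 of the 12 pancreatic acinus markers had a count in any of the 6 libraries. In bulk tissue, fewer cells of a type and less RNA per cell cannot be told apart.

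WT 590 and WT 601 stood apart from the other libraries. The first principal component of log2 CPM held 52.0% of the variance, with scores of -5.11, 28.7, 23.2, -21.6, -11.2 and -13.98. Saa2, Saa1, Moxd1, Orm2 and Lcn2 lay at its high end, and 4 of these 5 encode acute phase proteins. WT 776 had the lowest score, and on the second component (17.9% of the variance) it had the highest, 17.6, on the side of Tff3 and Cxcl9 and opposite Mup1, Mup12 and Serpina12. Among genes called variable below, WT 590 held the highest value of 154 and WT 776 the lowest of 151, out of 526. Counts of variable or stable list members that move by more than 1.5 times without WT 590 and WT 601, or without WT 776 as well, are therefore given both ways.

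A small number of genes took most of the RNA. On average the fragments of 140 genes made up 50% of a library (122 to 149 in single libraries), and 3341 genes made up 90%. The top 10 genes held 17.3% of fragments and the top 100 held 45.4%. Protein-coding genes held 97.6% ± 0.107 of fragments (SD, n = 6), and gene names without a biotype in the annotation used here held 1.83%. As a share of fragments, Alb was at 6.86% ± 0.985 and ranked highest in each library. It was followed by mt-Co1, cytochrome c oxidase subunit 1 of the mitochondrial genome (1.76% ± 0.214), by Apoe, the ligand for remnant uptake (1.53% ± 0.167), by Serpina3k (1.21% ± 0.226), by Apoa1 (1.17% ± 0.161) and by Cyp2e1, the P450 that oxidises ethanol (1.06% ± 0.126). Alb exceeded mt-Co1 in 6 of 6 libraries, mt-Co1 exceeded Apoe in 5 of 6, and Apoe exceeded Serpina3k in 6 of 6. Serpina3k exceeded Apoa1 in only 3 of 6, so the order below Apoe does not hold beyond the spread between livers.

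A long transcript gives more fragments per molecule, so levels of different genes were compared per length: each count was divided by the exonic length deposited for the gene and scaled to percent of the library. On that scale 59 genes made up 50% (54 to 58 in single libraries). Alb stayed first at 6.40% ± 1.02 (SD, n = 6). Short transcripts moved up: Apoa2, another main protein of high density lipoprotein, reached 2.77% ± 0.499, Fabp1, the fatty acid binding protein of liver, 1.55% ± 0.512, and Apoc1, a small lipoprotein component, 1.41% ± 0.157. Apoa2 exceeded mt-Co1 (2.49% ± 0.342) in 5 of 6 libraries. The deposited length adds up all annotated exons of a gene name, and the scale depends on that choice. With the median length of the annotated transcripts in its place, 47 of the 82 length-scaled values that were recomputed moved by more than 1.5 times. Alb was then at 19.1% instead of 6.40%, C3 at 1.38% instead of 0.382%, and Apoa2 at 1.31% instead of 2.77%, while Apoe was at 1.73% against 1.68%.

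**Figure D1:**
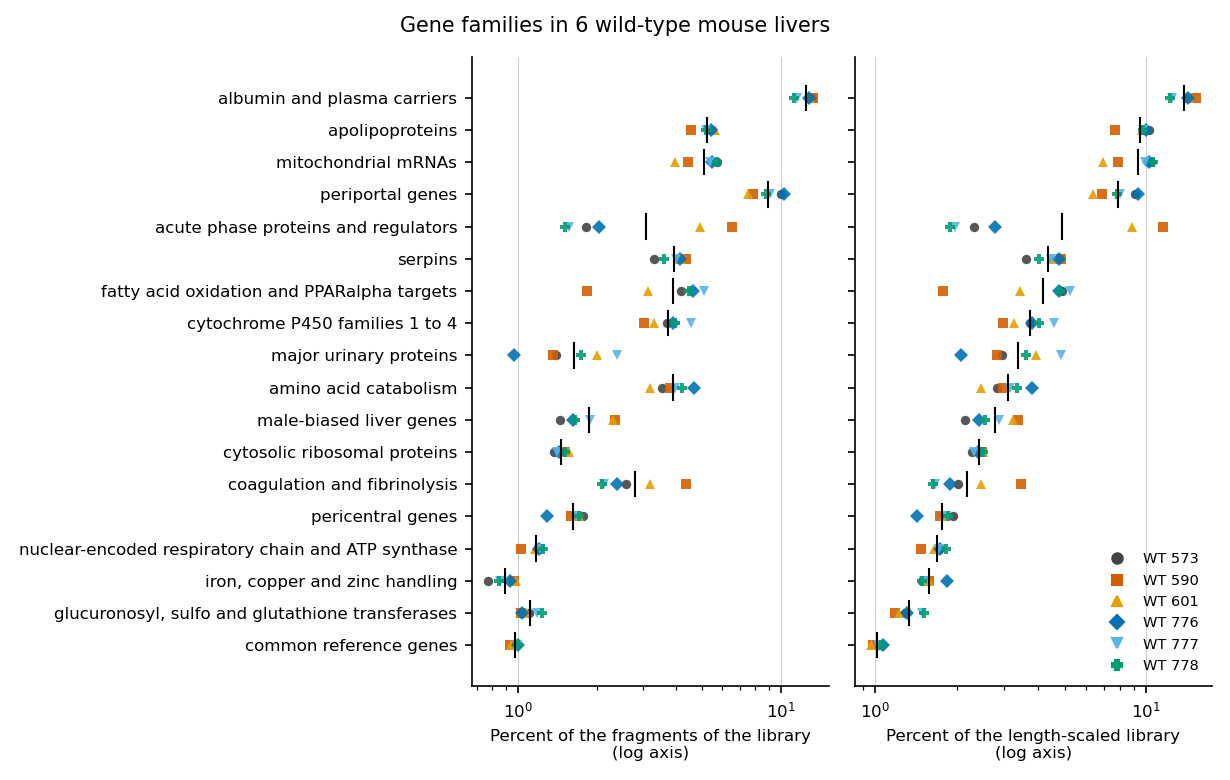
Share of the RNA held by the gene families with the largest length-scaled shares in the 6 wild-type livers. It is given as percent of fragments (left) and percent of the length-scaled library (right), both on log axes, with 1 symbol per library and a black tick for the mean. Plasma carriers lead on both scales, and the acute phase list spans the widest range, from 1.52% to 6.53% of fragments.

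By family, the 22 plasma carrier proteins, Alb included, held 12.5% ± 0.887 of fragments and 13.8% ± 1.18 of the length-scaled pool. Among the other protein families, the length-scaled pool held 9.50% ± 0.922 from 16 apolipoproteins, 9.33% ± 1.54 from 13 mitochondrial mRNAs, 4.89% ± 4.20 from 28 acute phase proteins and regulators, 4.36% ± 0.469 from 63 serpins and 3.72% ± 0.562 from 81 cytochrome P450 genes of families 1 to 4. The 84 cytosolic ribosomal proteins held 2.41% ± 0.0962 and the 21 major urinary proteins 3.37% ± 0.969. With transcript lengths the plasma carriers held 23.7%, the apolipoproteins 6.55%, the mitochondrial mRNAs 3.94%, the acute phase list 2.34%, the serpins 2.35%, the P450 genes 2.44% and the major urinary proteins 1.70%, so among these families the plasma carriers were highest under both lengths, and the order of the acute phase list, the serpins and the P450 genes did not hold. As counted, the order of the apolipoproteins and the mitochondrial mRNAs depended on WT 601: with the deposited lengths the mitochondrial mRNAs held more in 5 of 6 libraries, and without WT 590 and WT 601 they held 10.3% against 9.91%. The counts of mt-Co2, mt-Atp6, mt-Co3 and mt-Nd3 were low and are uncertain, as described below. The share of the mitochondrial mRNAs may therefore be too low, and their place among the families is uncertain. Some families share genes, such as Serpina3n in both the serpins and the acute phase list, so shares do not add up.

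Within families the pool was uneven. Among plasma carriers, Ahsg (fetuin-A) was at 8294, 11031, 10539, 9475, 8275 and 7545 CPM and Gc, the vitamin D binding protein, at 6057, 7664, 7633, 5592, 5795 and 5389 CPM, whereas Ttr, which carries thyroxine, was at 4913, 3497, 4375, 3748, 4256 and 3974 CPM. Mitochondrial mRNAs were also uneven: mt-Co1 held 1.76% ± 0.214 of fragments and mt-Cytb 1.06% ± 0.166, but mt-Co2, mt-Atp6, mt-Co3 and mt-Nd3 were listed at 4.40 to 16.99 CPM. The gene models Gm10925 (4.83 to 9.15 CPM) and Gm29216 (11.8 to 29.6 CPM), copies of mitochondrial sequence in the nuclear genome, sat at like levels, and the counting set no option for fragments that map to several places, so the low values of those 4 genes are uncertain. For the same reason the split between near-identical members of the Mup, Serpina1, Saa, Cyp4a and Ugt2b families is uncertain, and without strand information overlapping genes on opposite strands were not told apart.

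Among the enzymes of amino acid use, Mat1a, which makes S-adenosylmethionine, led in fragments at 0.866% ± 0.174. The 47 genes of amino acid catabolism held 3.89% ± 0.530 of fragments and the 8 of the urea cycle 1.07% ± 0.257, where Cps1, the entry enzyme, was at 3031, 4601, 2771, 5026, 4546 and 4521 CPM. Of the P450 genes, Cyp2e1 was at 11254, 10432, 11613, 7974, 11458 and 10664 CPM and Cyp3a11, a drug-metabolising enzyme, at 3180.3, 4813, 2489, 3752, 3002 and 2781 CPM. The transferases that conjugate drugs and hormones were led in CPM by Mgst1, a microsomal glutathione transferase, at 3285 to 3839 CPM. These are levels in CPM and say nothing of the order of genes of different length.

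Spread between livers was measured as the SD of log2 CPM over the 6 libraries, for the 8942 genes with a mean of at least 5 CPM. The median SD was 0.17, a factor of 1.13 between livers at 1 SD, and 90% of genes lay between 0.072 and 0.54. A gene is called variable here at an SD of 0.5 or more, a factor of 1.41, and stable at an SD of 0.1 or less, a factor of 1.07. By these rules 526 genes, or 5.88%, were variable and 1311, or 14.7%, were stable. Highly expressed genes were more often variable: 32 of 132 genes at 1000 CPM or more (24.2%) against 112 of 2518 genes between 30 and 100 CPM (4.45%). Counting error alone would give a median SD of 0.00638 at 1000 CPM or more, and 0.102 between 5 and 10 CPM, where the median SD was 0.219. With WT 590 and WT 601 left out, the variable genes were 394 of 8947 (4.40%), 284 of them shared with the 526, and the stable genes numbered 2958 instead of 1311. Without WT 776 as well, 330 were variable and 3674 stable.

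**Figure D2:**
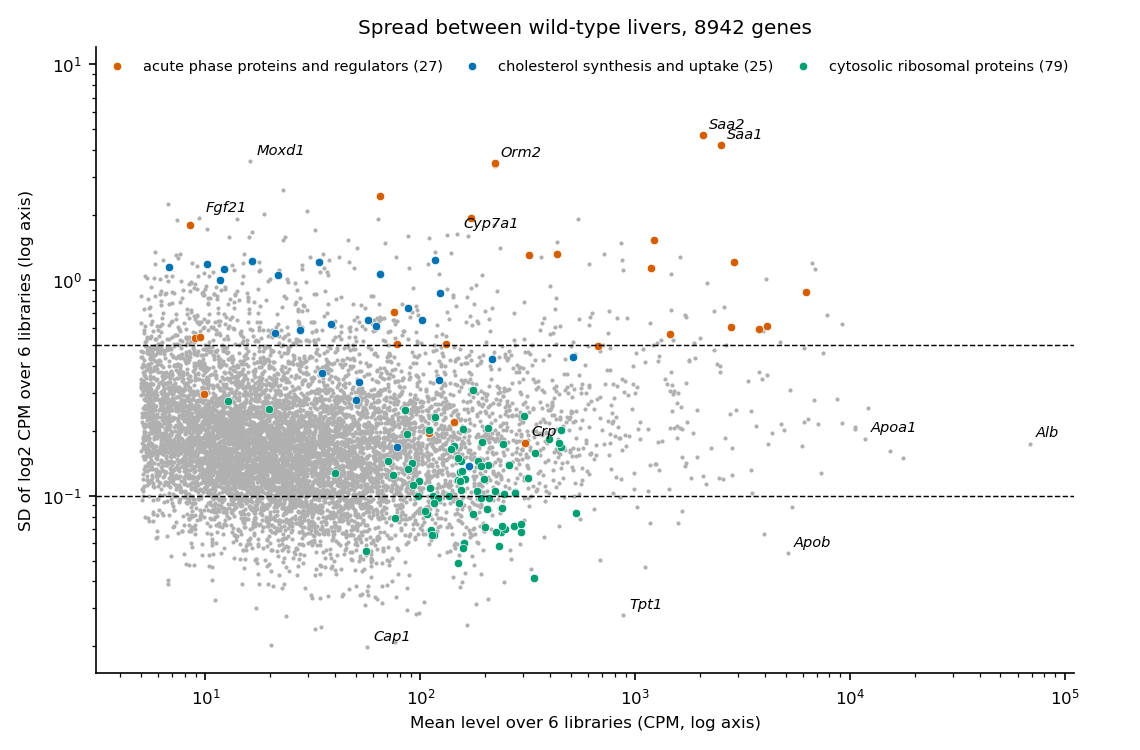
SD of log2 CPM over the 6 libraries (log axis) against mean CPM (log axis) for the 8942 measured genes, with 3 lists in colour and dashed lines at SDs of 0.5 and 0.1. Most acute phase and cholesterol genes lie above the upper line, and most ribosomal protein genes lie near or below the lower one.

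Gene lists differed widely in how many of their members were variable, against the 5.88% of all genes. The acute phase list had 22 of 27 measured members variable, the major urinary proteins 11 of 15, cholesterol synthesis and uptake 17 of 25, male-biased genes 13 of 21 and immediate early genes 9 of 15. Gluconeogenesis and glycogen had 1 of 18, amino acid catabolism 6 of 47 and the urea cycle 1 of 8. Ribosomal proteins, the nuclear-encoded respiratory chain, proteasome subunits, splicing factors and translation factors had none among 79, 77, 37, 52 and 47 measured members. A member was measured if its mean over the 6 libraries reached 5 CPM. A gene such as Moxd1 or Orm3 reaches that mean only through the libraries where it was high, so it could not have been stable. Without WT 590 and WT 601, against 4.40% of all genes, immediate early genes had 7 of 16 variable, amino acid catabolism 4 of 47, iron, copper and zinc handling 5 of 19 and fatty acid synthesis 7 of 26. Leaving out WT 776 as well, against 3.69% of all genes, these lists had 5 of 15, 2 of 47, 1 of 19 and 4 of 26, and clock genes had 4 of 19, serpins 6 of 24, male-biased genes 8 of 20, interferon-stimulated genes 14 of 23 and gluconeogenesis and glycogen 2 of 17. So the high share of variable members in iron, copper and zinc handling rested on these 3 libraries.

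**Figure D3:**
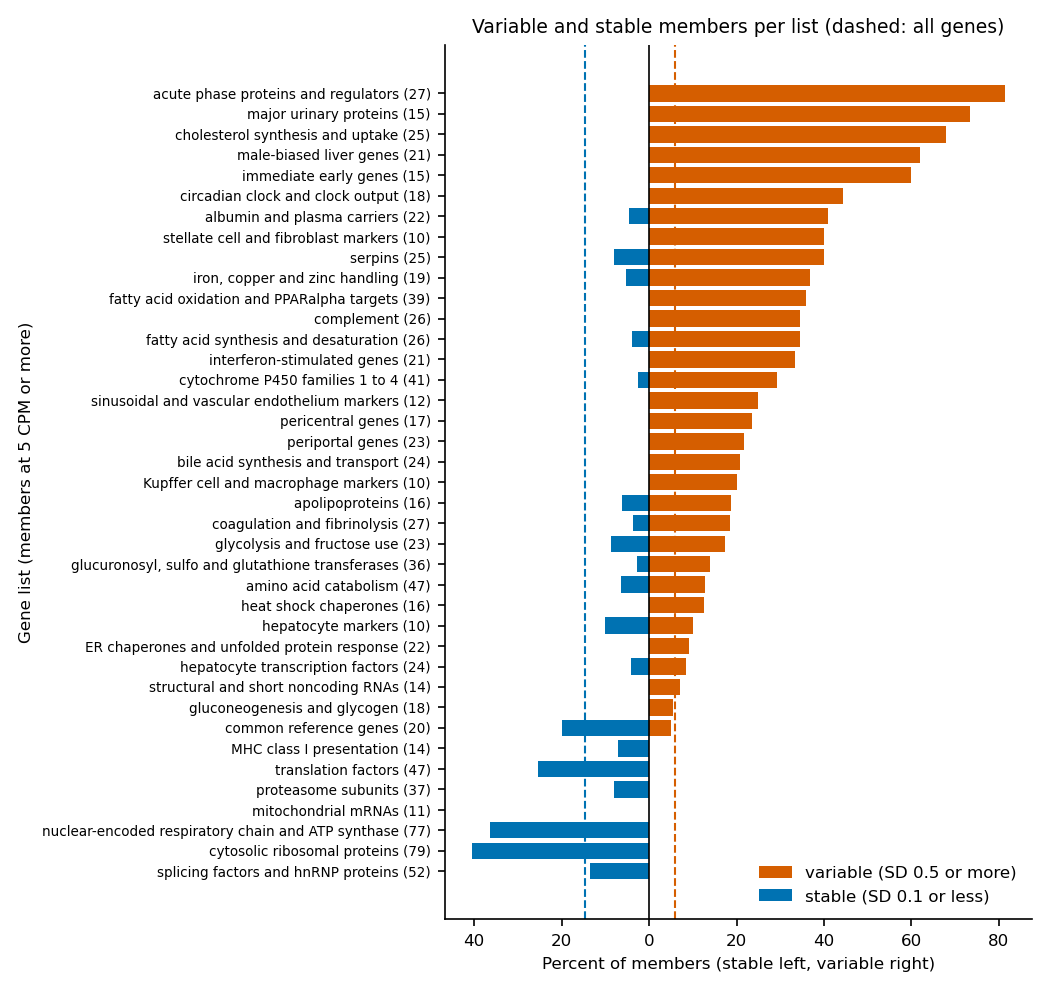
Percent of measured members called variable (right of 0) and stable (left of 0) for each list with at least 10 measured members, their number in brackets, with dashed lines for all genes at 5.88% and 14.7%. The acute phase list has the longest variable bar, and the ribosomal protein list the longest stable bar.

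Among the 15 least variable genes named were genes of membrane traffic, transcription and the cytoskeleton. Cap1, which binds actin (chr4:122859047-122886056), had the smallest SD of the named genes, 0.020, at 56.5, 56.2, 55.7, 55.4, 57.3 and 57.2 CPM. Vps39, a subunit of the HOPS tethering complex of the endosome, was at 20.6, 20.1, 19.9, 20.1, 19.8 and 20.1 CPM (SD 0.020), and Tpt1, the translationally controlled tumor protein, at 886, 886, 874, 854, 852 and 889 CPM (SD 0.028). Gtf3c2, a subunit of a general factor of RNA polymerase III (SD 0.024), Plin3, a lipid droplet coat protein (SD 0.024), and Arf1, a GTPase of Golgi transport (SD 0.032), were close behind. Of these 6 genes Arf1 had the largest difference between its highest and lowest library, 1.05-fold. Counting error alone would give a median SD of 0.065 between 10 and 30 CPM and 0.039 between 30 and 100 CPM. The SDs of Vps39 and Cap1 lay below these, so their order among the least variable genes is uncertain.

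Ribosomal protein genes had 32 of 79 measured members stable and the nuclear-encoded respiratory chain 28 of 77, against 14.7% of all genes, with median SDs of 0.11 and 0.11. Translation factors had 12 of 47 stable (median SD 0.12), and splicing factors 7 of 52 (13.5%, median SD 0.17), a share near that of all genes. These 4 lists, without WT 590 and WT 601, had 62 of 79, 55 of 77, 30 of 47 and 25 of 52 stable, against 33.1% of all genes. Without WT 776 as well they had 57 of 79, 57 of 77, 29 of 47 and 31 of 52, against 41.1%. Within WT 573, WT 590 and WT 601 alone the ribosomal list had 20 of 79 stable (25.3%), near the 24.75% of all genes, and the respiratory chain 27 of 77. In the ribosomal list Rpl7 was the least variable (SD 0.041) and Rpl41 the most (SD 0.31). Of 20 genes often used as reference genes, 4 were stable: Ppia, the peptidyl-prolyl isomerase cyclophilin A (SD 0.046), B2m, the light chain of MHC class I (SD 0.046), Eef1a1, an elongation factor (SD 0.066), and Pgk1, a glycolytic enzyme (SD 0.066). Gapdh had an SD of 0.17 and Actb, beta-actin, 0.23. Of the 20, 9 were stable without WT 590 and WT 601, and 12 of 20 without WT 776 as well. Actg1, gamma-actin, was the 1 variable member, at 85.6, 37.1, 37.7, 116, 53.5 and 48.4 CPM, highest in WT 776 and next highest in WT 573. The variable ones were 2 of 20 without WT 590 and WT 601, and 0 of 20 without WT 776 too. Apob, with an SD of 0.054, was the least variable apolipoprotein.

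The acute phase list held the 2 genes with the largest SDs. Its 28 genes include 27 measured members, of which 22 were variable, and its median level relative to each gene's own mean over the 6 libraries was -0.84, 1.09, 0.97, -0.23, -0.48 and -0.55 on the log2 scale. Together its genes held 1.82, 6.53, 4.93, 2.04, 1.57 and 1.52 percent of fragments. Saa1 (chr7:46740501-46742980), a serum amyloid A apolipoprotein, was at 20.8, 8136, 6737, 63.7, 20.7 and 20.7 CPM. Saa2 (chr7:46751833-46754314), its neighbour on chromosome 7, was at 10.2, 6793, 5480, 26.1, 8.42 and 8.16 CPM and had the largest SD of all measured genes, 4.70. Both were above 5000 CPM in WT 590 and WT 601 and under 100 CPM in the other 4 livers, with WT 776 the highest of those 4.

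**Figure D4:**
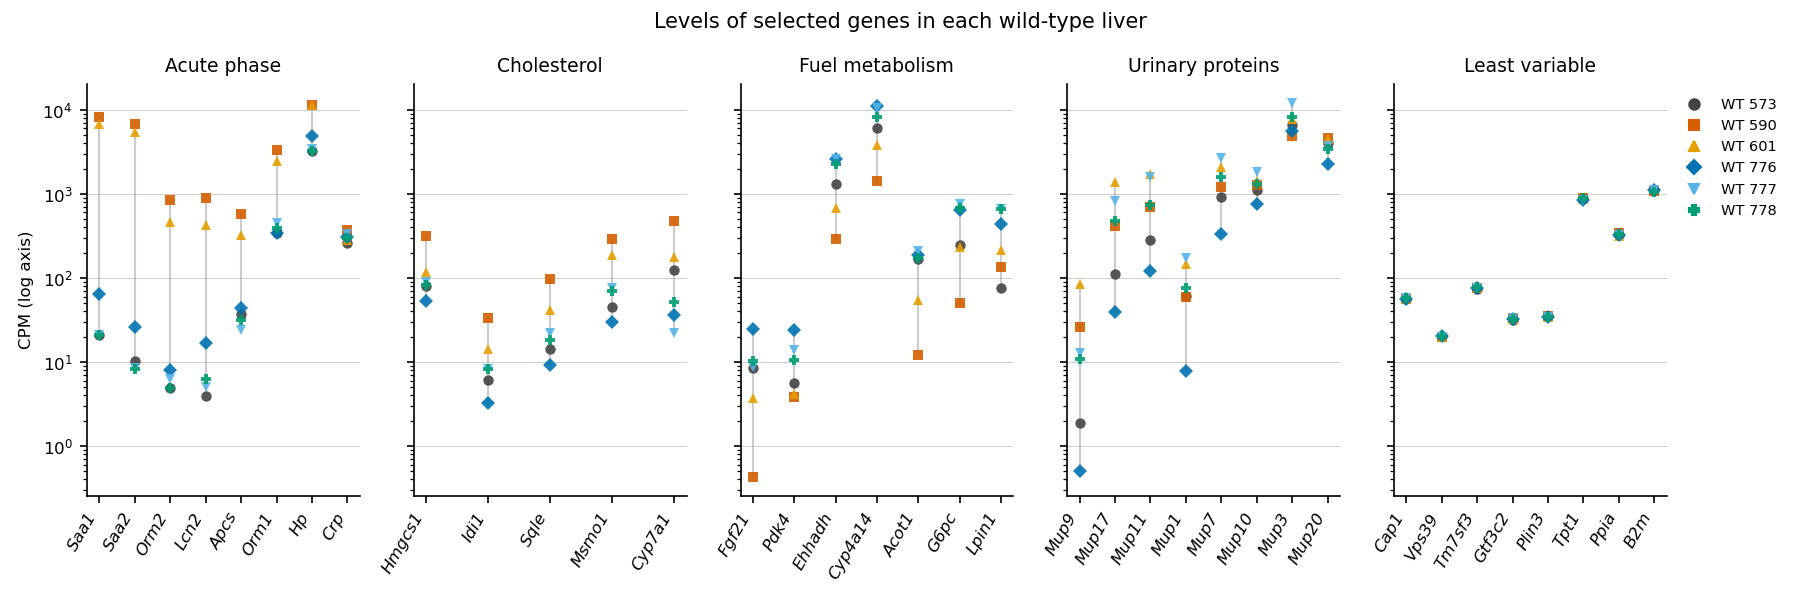
CPM on a log axis for selected genes, with 1 symbol per wild-type library and 5 panels for acute phase, cholesterol, fuel metabolism, urinary protein and least variable genes. WT 590 and WT 601 lie far above the rest for Saa1, Saa2, Orm2 and Lcn2, WT 590 is lowest for Fgf21 and Acot1, WT 776 is lowest for most urinary proteins, and the symbols of the least variable genes overlap.

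Other secreted members showed the same 2 libraries on top. Orm2, an orosomucoid (chr4:63362449-63365878), was at 4.94, 839.8, 465, 7.93, 6.24 and 4.95 CPM. Lcn2, lipocalin 2, which binds bacterial siderophores (chr2:32384633-32388252), was at 3.90, 882, 421, 16.7, 4.97 and 6.22 CPM. Apcs, serum amyloid P, was at 37.1, 571, 327, 44.1, 23.9 and 31.9 CPM. In each of the 3 the values of WT 590 and WT 601 lay above those of every other liver. Hpx, hemopexin, which binds free heme, was at 2738, 15653, 12406, 4012, 2608 and 2512 CPM, and Hp, haptoglobin, which binds free hemoglobin, at 3227, 11278, 11463, 4809, 3438 and 3224 CPM. The least variable member of the list was Crp, C-reactive protein, at 261, 369, 279, 307, 329 and 297 CPM (SD 0.18). The fibrinogen chains stood out in WT 590 rather than in both: Fga was at 3566, 8326, 4077, 3319, 2745 and 2574 CPM, Fgb at 3279, 7411, 3914, 2961, 2606 and 2413 CPM and Fgg at 2442, 5426, 3107, 2159, 1848 and 1779 CPM.

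Some members departed from that pattern. The metallothioneins Mt1 and Mt2, which bind zinc and copper, were high in 3 livers, with Mt1 at 119.9, 845, 736, 596, 155 and 140 CPM and Mt2 at 88.8, 543, 547, 513, 117 and 105 CPM. WT 776, close to WT 573, WT 777 and WT 778 in Orm2 and Apcs, lay with WT 590 and WT 601 in both metallothioneins. Hamp, which encodes the iron hormone hepcidin, was lowest in WT 601 and WT 590, at 1099, 478, 419, 669.5, 754 and 609 CPM. Socs3, a feedback inhibitor of cytokine signalling, was at 10.5, 9.62, 13.8, 8.14, 9.40 and 7.70 CPM and Stat3, the transcription factor downstream of interleukin-6, at 113, 130.2, 119.9, 108, 89.8 and 97.5 CPM, with SDs of 0.30 and 0.20. Il1r1, the interleukin-1 receptor, was instead lowest in WT 573, at 29.3, 50.3, 95.6, 95.4, 101 and 78.7 CPM.

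Without WT 590 and WT 601, 10 of 26 measured members of the acute phase list were variable, against 4.40% of all genes, and the list held 1.74% of fragments on average instead of 3.07%. Leaving out WT 776 too, 3 of 26 were variable, against 3.69% of all genes. Without WT 590 and WT 601, the mean share of Saa1 was 0.00322% of fragments instead of 0.241%, and that of Hpx 0.302% instead of 0.653%. The 9 markers of neutrophils and monocytes all had means under 5 CPM, and together they held 0.000330, 0.000780, 0.000691, 0.000737, 0.000278 and 0.000445 percent of fragments, highest in WT 590. S100a9, a calprotectin subunit, was at 0.530, 2.18, 1.60, 1.73, 0.436 and 0.565 CPM, and Ly6g, of neutrophils, had no count in WT 573, WT 777 and WT 778. The 12 markers of Kupffer cells and macrophages held 0.0141, 0.0186, 0.0194, 0.0210, 0.0166 and 0.0244 percent, highest in WT 778. Marco, a macrophage receptor, was highest in WT 590 at 26.5 CPM and between 2.58 and 9.51 CPM elsewhere, while Clec4f, a marker of Kupffer cells, was at 33.1, 29.6, 38.96, 45.9, 36.3 and 52.1 CPM. Any part of these cells in the acute phase values was not tested.

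The region before the transcription start is shown for the 4 genes of the acute phase list with the largest SDs, because their transcripts were highest in the same 2 livers. The sequences are from RefSeq on GRCm38.p6, 250 bases before the start, 5′ to 3′ on the strand of the gene: Saa1 at chr7:46742981-46743230 (minus strand), Saa2 at chr7:46751583-46751832 (plus), Orm2 at chr4:63362199-63362448 (plus) and Lcn2 at chr2:32387740-32387989 (minus). The deposited Lcn2 gene begins upstream of the RefSeq start, and the whole window lies within the deposited gene. Capitals mark matches to TTGCNNAA, a pattern that C/EBP factors are known to bind.
Saa1: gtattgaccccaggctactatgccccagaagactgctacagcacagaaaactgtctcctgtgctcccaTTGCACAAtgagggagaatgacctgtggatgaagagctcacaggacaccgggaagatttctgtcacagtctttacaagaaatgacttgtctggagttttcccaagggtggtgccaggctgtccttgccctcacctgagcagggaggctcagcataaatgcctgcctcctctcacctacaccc
Saa2: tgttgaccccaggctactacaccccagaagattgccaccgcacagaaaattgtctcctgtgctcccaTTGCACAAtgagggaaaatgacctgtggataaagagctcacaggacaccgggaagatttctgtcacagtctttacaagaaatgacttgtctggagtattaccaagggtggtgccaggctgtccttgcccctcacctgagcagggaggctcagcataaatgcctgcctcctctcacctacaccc
Orm2: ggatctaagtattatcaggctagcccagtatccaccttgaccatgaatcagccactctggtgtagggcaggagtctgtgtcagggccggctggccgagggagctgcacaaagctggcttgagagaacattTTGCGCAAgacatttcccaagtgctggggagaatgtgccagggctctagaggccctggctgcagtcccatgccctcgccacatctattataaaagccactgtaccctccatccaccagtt
Lcn2: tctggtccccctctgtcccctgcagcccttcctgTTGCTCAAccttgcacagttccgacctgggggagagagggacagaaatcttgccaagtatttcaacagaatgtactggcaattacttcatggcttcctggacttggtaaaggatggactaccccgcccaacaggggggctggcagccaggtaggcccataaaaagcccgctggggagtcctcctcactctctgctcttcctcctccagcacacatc

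The match begins 182 bases before the start in Saa1, 183 in Saa2, 120 in Orm2 and 216 in Lcn2, and that of Orm2 reads the same on both strands. Saa1 and Saa2, which lie head to head, were the same in 238 of 251 aligned columns (94.8%), against 56.1% for Saa1 with Orm2. Searched on both strands, TTGCNNAA was in 11 of the 23 promoters of the acute phase list that were in the table (47.8%) and in 9.55% of all 27025 promoters of the same length. TTCNNNGAA, a STAT-like pattern, was in 7 of 23 (30.4%) against 7.18%, and GGNNTTTCC, an NF-kB-like pattern, in 3 of 23 against 4.84%. Neither of these 2 patterns occurred in the 4 windows shown. A match is a description of the letters and not a binding site.

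Complement and coagulation genes leaned the same way with smaller differences. Of 26 measured complement genes (29 listed), 9 were variable, and the list level was -0.20, 0.59, 0.38, -0.32, -0.22 and -0.25. C3, the central component, was at 7389, 16288, 12683, 6631, 6513 and 5466 CPM, with WT 590 highest and WT 601 next. C6, of the membrane attack complex, was even at 197, 259.5, 251, 227, 229.6 and 237 CPM (SD 0.14). In coagulation and fibrinolysis 5 of 27 measured members were variable, 3 of them the fibrinogen chains already described. Cpb2, which slows fibrinolysis, was the most variable at 195, 616, 460.3, 203, 185 and 169.6 CPM, while F11, coagulation factor XI, was stable at 59.03, 59.1, 57.7, 59.6, 54.3 and 50.98 CPM (SD 0.090). No complement gene (0 of 26) and no coagulation gene (0 of 27) was variable without WT 590 and WT 601.

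Serpins, inhibitors of serine proteases and hormone carriers, had 10 of 25 measured members variable of 63 listed. Serpina3n was at 492, 3176, 1734, 627, 582 and 482 CPM, highest in WT 590 and WT 601. Serpina1e, an alpha-1-antitrypsin, was at 3316, 11992, 10549.8, 8699, 6956 and 5394 CPM and lowest in WT 573, whereas its relative Serpina1b was even at 5349.9, 5144, 5825, 5374, 5452 and 4841 CPM (SD 0.089), a split that is uncertain between near-identical genes. Serpina7, the thyroxine-binding globulin, was at 54.4, 45.1, 17.3, 11.96, 4.61 and 4.77 CPM, with its 3 highest values in WT 573, WT 590 and WT 601. Serpina12, known as vaspin, was at 41.8, 21.8, 27.6, 1.95, 19.6 and 28.2 CPM and lowest in WT 776. Among serpins 8 of 25 were variable without WT 590 and WT 601.

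**Figure D5:**
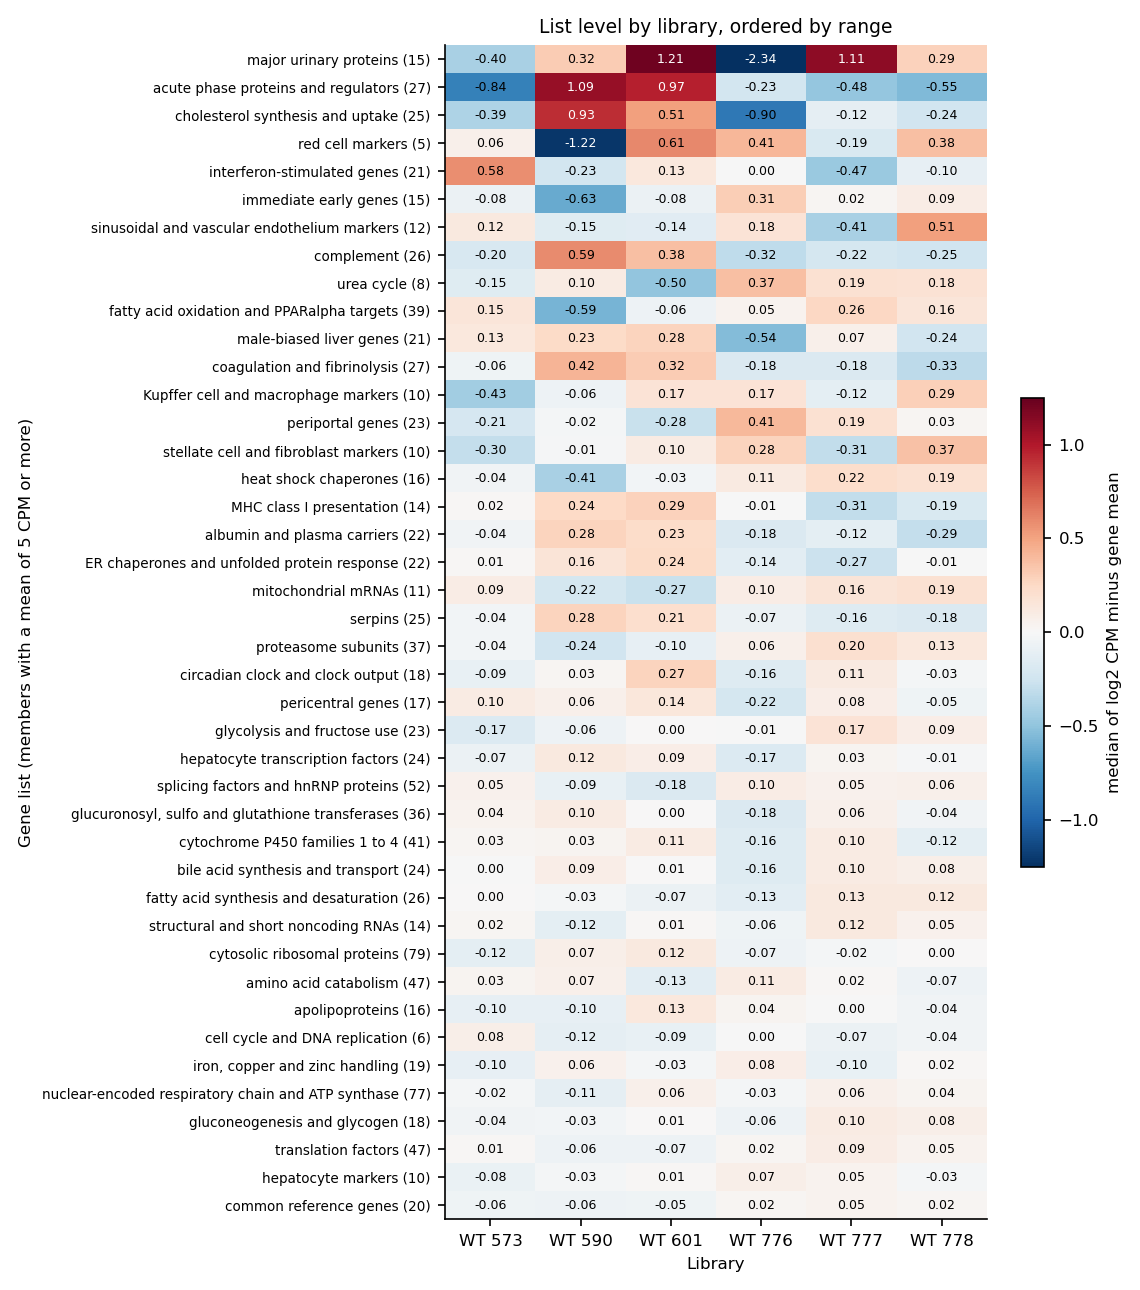
Level in each library of the gene lists with at least 5 measured members, ordered by range, with the value in each cell. The level is the median over measured members of log2 CPM minus the gene's mean over the 6 libraries. The colour scale is capped, so the deepest blue and red cells can lie beyond it. Major urinary proteins reach -2.34 in WT 776, the acute phase list is positive in WT 590 and WT 601, and common reference genes stay close to 0, the lowest at -0.06 in WT 590.

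Cholesterol synthesis and uptake was the metabolic list with the largest share of variable members, 17 of 25, and its level was -0.39, 0.93, 0.51, -0.90, -0.12 and -0.24. The level was highest in WT 590 and next highest in WT 601, as in the acute phase list, but here it was lowest in WT 776. Sqle, squalene epoxidase, was at 14.1, 96.8, 41.3, 9.15, 22.1 and 18.4 CPM. Msmo1, a sterol demethylation enzyme (chr8:64718139-64733792), was at 45.1, 288, 188, 29.6, 76.7 and 70.1 CPM and had the largest SD of the list, 1.24. In both genes WT 590 was highest and WT 601 next. Srebf2, which encodes the transcription factor of the pathway, was more even, at 43.3, 70.98, 63.5, 41.6, 49.04 and 41.4 CPM (SD 0.33). Ebp, sterol isomerase, was the least variable member (SD 0.14). In this list 8 of 23 measured members were variable without WT 590 and WT 601, and 1 of 24 without WT 776 too.

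Among the pathway's genes with a promoter in the table, Msmo1 and Idi1, isopentenyl diphosphate isomerase (6.14, 33.3, 14.3, 3.28, 8.31 and 8.27 CPM), are shown because both varied by a large factor and hold more than 1 copy of CCAAT, the box bound by NF-Y. The windows are chr8:64733579-64733828 (minus strand) and chr13:8885356-8885605 (plus strand) of GRCm38.p6, from RefSeq, 250 bases before the start and 5′ to 3′. The deposited Msmo1 gene likewise begins upstream of the RefSeq start. Capitals mark CCAAT or its reverse complement ATTGG.
Msmo1: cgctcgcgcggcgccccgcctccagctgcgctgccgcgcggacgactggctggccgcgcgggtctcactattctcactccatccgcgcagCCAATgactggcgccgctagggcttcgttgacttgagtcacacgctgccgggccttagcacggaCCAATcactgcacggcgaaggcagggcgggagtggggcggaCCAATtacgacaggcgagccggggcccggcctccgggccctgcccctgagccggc
Idi1: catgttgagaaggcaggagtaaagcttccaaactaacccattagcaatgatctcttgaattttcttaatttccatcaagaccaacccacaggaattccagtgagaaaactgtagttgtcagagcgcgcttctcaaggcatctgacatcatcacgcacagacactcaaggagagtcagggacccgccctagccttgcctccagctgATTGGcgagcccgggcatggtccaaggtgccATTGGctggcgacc

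Msmo1 held CCAAT at 160, 96 and 55 bases before the start, and Idi1 held ATTGG at 45 and 14. Over both strands, CCAAT was in 15 of the 17 promoters of the cholesterol list in the table (88.2%), in 1 of 23 of the acute phase list and in 34.5% of all 27025 promoters. TCACNCCAC, an SREBP-like pattern, was in 1 of 17 against 1.04% of all promoters and in neither window shown.

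In bile acid synthesis and transport 5 of 24 measured members were variable, against 5.88% of all genes, and 2 of 24 without WT 590 and WT 601, against 4.40%. Cyp7a1, the rate-limiting enzyme, was at 124, 478, 175, 36.4, 22.2 and 52.04 CPM, highest in WT 590 and lowest in WT 777. Cyp8b1, which sets the share of cholic acid, was far more even at 809, 627, 778, 724, 762 and 993 CPM (SD 0.22). Nr0b2, the repressor SHP, was at 23.9, 25.9, 62.6, 45.5, 50.9 and 41.4 CPM. The transporters differed: Slc10a1, the sodium-dependent importer, had an SD of 0.17, and Slco1a1, an organic anion importer, had 0.64, at 274, 89.6, 132, 135, 271 and 199 CPM.

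The level of the fatty acid oxidation and PPARalpha target list was lowest in WT 590. It was 0.15, -0.59, -0.06, 0.05, 0.26 and 0.16, and 14 of 39 measured members were variable. Cyp4a14, a fatty acid omega-hydroxylase, was at 6059, 1429.5, 3791, 10937, 10628 and 8293 CPM and Ehhadh, the bifunctional enzyme of peroxisomal oxidation, at 1305, 291, 671, 2581, 2612 and 2243 CPM. Both were lowest in WT 590, next lowest in WT 601 and then in WT 573. Acot1, an acyl-CoA thioesterase, was at 168, 12.2, 55.03, 185, 206 and 173 CPM. Fgf21, a hormone made by the liver in fasting, was at 8.48, 0.429, 3.76, 24.6, 8.64 and 10.4 CPM, a 57.3-fold difference between WT 776 and WT 590. Ppara, the receptor, was even at 73.3, 81.99, 93.4, 89.1, 89.6 and 103 CPM (SD 0.17). So was Cpt1a, which admits fatty acids to the mitochondrion, at 859.9, 640.1, 756, 933, 783 and 845 CPM (SD 0.19). The list held 4.19, 1.83, 3.12, 4.62, 5.09 and 4.48 percent of fragments. Of its measured members 3 of 39 were variable without WT 590 and WT 601.

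Genes of glucose use differed in which livers were high. G6pc, glucose-6-phosphatase, the last step of glucose release, was at 248, 49.8, 233, 639, 752 and 677 CPM, lowest in WT 590. Pck1, the other gluconeogenic enzyme often read with G6pc, did not share its range, at 4212, 4274, 4919.5, 4719, 6072 and 5401 CPM (SD 0.20). Igfbp1, an insulin-repressed binding protein, was at 28.4, 47.1, 81.6, 389, 124 and 159 CPM and highest in WT 776. Pklr, liver pyruvate kinase, was lowest in WT 776, at 59.5, 58.1, 74.5, 25.8, 84.1 and 90.1 CPM. Apart from G6pc, none of the 18 measured genes of gluconeogenesis and glycogen was variable.

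In fatty acid synthesis and desaturation 9 of 26 measured members were variable, without a common order of the livers: the list level stayed between -0.13 and 0.13. Scd1, the delta-9 desaturase, was at 5222, 2529, 1055, 1940.3, 804 and 1363 CPM, highest in WT 573. Lpin1, a phosphatidate phosphatase, was at 76.7, 136, 216, 435, 654 and 667 CPM, with its 3 highest values in WT 776, WT 777 and WT 778. Fasn, fatty acid synthase, was at 86.4, 133, 105, 62.5, 181 and 143 CPM and Srebf1, its regulator, at 79.7, 96.3, 90.3, 28.9, 66.8 and 46.2 CPM, both lowest in WT 776. Tat, tyrosine aminotransferase, a glucocorticoid-induced enzyme of amino acid catabolism, was at 982, 1969.7, 2003, 4371, 3083 and 3108 CPM and highest in WT 776.

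The 21 major urinary protein genes, which encode pheromone carriers excreted in urine, had the largest median SD of the lists with 10 or more measured members. Its 15 measured members included 11 variable ones, the median SD was 1.49, and the list level was -0.40, 0.32, 1.21, -2.34, 1.12 and 0.29. WT 776 was the lowest library in 13 of the 15 measured genes, WT 601 the highest in 8 and WT 777 in 6. Mup1 was at 61.5, 59.2, 146, 7.85, 174 and 75.6 CPM and Mup17 at 111, 416, 1400.4, 39.5, 811 and 473 CPM. Mup20, darcin, was more even at 4055, 4557, 4501, 2270.3, 3718 and 3367 CPM (SD 0.37), and Mup3, the leading member in fragments, was at 6549, 4881, 7739, 5572, 11967 and 8264 CPM. Since the split among near-identical copies is uncertain, the sum is given beside single members: the family held 1.40, 1.36, 2.001, 0.968, 2.38 and 1.74 percent of fragments, lowest in WT 776. The counting set no option for fragments that map to several copies, so such fragments may be missing from the sum as well. Without WT 590 and WT 601, 12 of 15 measured members were variable, and without WT 776 as well, 10 of 16.

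Male-biased genes, a list that also holds Mup20, were most often lowest in WT 776 and differed in which liver was highest. WT 776 was the lowest library in 13 of the 21 measured genes and the highest in 0. WT 573 was the highest in 7, WT 590 and WT 777 in 5 each, and WT 601 in 4. The list level was 0.13, 0.23, 0.28, -0.54, 0.07 and -0.24. Of the measured members 13 of 21 were variable, and 9 of 20 without WT 590 and WT 601. Hsd3b5, a steroid dehydrogenase of male liver, was at 28.6, 14.7, 30.9, 1.33, 6.57 and 1.94 CPM, highest in WT 601 and WT 573. Moxd1, a monooxygenase related to dopamine beta-hydroxylase, was at 0.193, 44.7, 50.6, 0.396, 0.581 and 0.318 CPM, so all but 2 livers were under 1 CPM. Selenbp2, a selenium-binding protein, was at 32.5, 327, 174, 17.04, 57.3 and 49 CPM. Cyp4a12a, a male-specific P450, was more even at 256, 206, 237, 165, 283 and 254 CPM (SD 0.28). Of 19 female-biased genes only 4 reached a mean of 5 CPM.

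Genes with fast or daily changes were also often variable. Of 15 measured immediate early genes 9 were variable, and the list level was lowest in WT 590 (-0.63) and highest in WT 776 (0.31). Jun, a subunit of AP-1, was at 49.5, 7.65, 8.31, 22.01, 14.9 and 15.1 CPM, highest in WT 573, and Egr1, a zinc finger factor, at 22.8, 27.8, 86.99, 31.4, 65.9 and 55.9 CPM, highest in WT 601, so these genes did not share an order. Gadd45g, a stress-induced gene, was at 5.42, 24.1, 20.3, 78.9, 43.4 and 39.96 CPM. Of 18 measured clock genes 8 were variable. Per2, a repressor of the clock, was at 26.7, 63.2, 54.95, 20.8, 37.4 and 33.7 CPM, Dbp, a clock output factor, at 95.7, 91.5, 98.4, 37.3, 62.1 and 69.7 CPM, and Nr1d1, REV-ERBalpha, at 144, 66.1, 45.2, 61.2, 53.7 and 62.3 CPM. The highest and lowest livers differed in these 3 genes by 3.04-fold, 2.64-fold and 3.18-fold. Heat shock chaperones had 2 of 16 measured members variable (12.5%) and ER chaperones 2 of 22 (9.09%), against 5.88% of all genes, and without WT 590 and WT 601 the counts were 1 of 16 and 3 of 22. Herpud1, of ER-associated degradation, was at 334, 712, 855, 739, 731 and 726 CPM, lowest in WT 573, and Asns, asparagine synthetase, at 2.0, 7.69, 14.3, 18.5, 3.45 and 6.04 CPM.

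Interferon-stimulated genes had a different order again, with the list level highest in WT 573 (0.58) and lowest in WT 777 (-0.47). Ifit1, which binds foreign RNA, was at 19.6, 4.01, 9.47, 13.7, 3.88 and 9.82 CPM and Rsad2, viperin, at 23.8, 3.61, 6.31, 21.1, 5.70 and 13.99 CPM. In both, WT 573 was highest and WT 776 next, and WT 590 was lowest or next to lowest. The list as a whole did not share the place of WT 776. The list level was next highest in WT 601 (0.13) and was -0.003 in WT 776. Of the 21 measured members, 17 were highest in WT 573, 4 in WT 601 and 0 in WT 776. Over all 6 livers 7 of 21 measured members were variable, and without WT 590 and WT 601 the count was 12 of 25. Genes of MHC class I presentation had 0 of 14 measured members variable.

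Genes tied to a position along the liver lobule were more often variable than the 5.88% of all genes. Of 17 measured pericentral genes 4 were variable (23.5%), with Glul, glutamine synthetase, at 734, 774, 842, 551, 951 and 908 CPM and Cyp1a2, a caffeine-metabolising P450, at 220, 410, 377, 161, 261 and 200.4 CPM. Of 23 measured periportal genes 5 were variable (21.7%), led by Apoa4, an apolipoprotein, at 223, 183, 295, 1338, 613 and 996 CPM. Over all 6 libraries no member of either list was stable, against 14.7% of all genes. Without WT 590 and WT 601, 1 of 17 pericentral and 0 of 23 periportal genes were stable, against 33.1% of all genes. Without WT 776 as well, the counts were 3 of 17 and 1 of 23, against 41.1%. The periportal level was highest in WT 776 (0.41) and lowest in WT 601 (-0.28), and the pericentral level was lowest in WT 776 (-0.22). Over all 6 libraries, hepatocyte transcription factors were more even than the position lists, but not than genes as a whole. Of 24 measured factors 2 were variable (8.33%, against 5.88% of all genes), Ahr, the dioxin receptor, and Cebpb. The count was 1 of 24 without WT 590 and WT 601, against 4.40% of all genes. Over all 6 libraries 1 of 24 was stable (4.17%, against 14.7%), and the median SD was 0.23 against 0.17. Without WT 590 and WT 601, 5 of 24 were stable, against 33.1% of all genes. Without WT 776 as well, 5 of 24 were stable, against 41.1%. The median SD of the factors was then 0.25, above the 0.20 of the pericentral genes and below the 0.27 of the periportal genes. Hnf4a, a nuclear receptor of hepatocyte identity, was at 749.8, 762, 721, 848, 864 and 784 CPM (SD 0.10).

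Markers of other cells had their own orders. The 4 globin transcripts were lowest in WT 590: Hbb-bs, an adult beta globin, was at 61.5, 25.7, 91.2, 81.2, 50.7 and 77.9 CPM. Igha, the heavy chain of IgA, was at 3.95, 4.76, 2.48, 45.7, 17.8 and 24.1 CPM, with the 3 highest values in WT 776, WT 778 and WT 777. Lyve1, of sinusoidal and lymphatic endothelium, was at 4.53, 8.76, 5.48, 39.9, 6.10 and 14.9 CPM and highest in WT 776, whereas Stab2, a sinusoidal scavenger receptor, was at 28.8, 24.4, 28.01, 27.9, 21.9 and 35.1 CPM (SD 0.23). Lyve1 departed from most of its list: of the 12 measured endothelium markers, 10 were highest in WT 778 and 2 in WT 776. Col1a1 and Col3a1, fibrillar collagens, were highest in WT 601 and WT 590, with Col3a1 at 8.34, 26.6, 27.5, 13.7, 4.21 and 9.26 CPM. Their list of stellate cell and fibroblast markers did not share that order. Its level was highest in WT 778 (0.37), with WT 601 at 0.10 and WT 590 at -0.01. Of its 10 measured members, 5 were highest in WT 601, 4 in WT 778 and 1 in WT 776. Tff3, a trefoil peptide of mucous epithelia, was at 1.52, 6.47, 3.12, 28.1, 0.545 and 0.353 CPM, highest in WT 776. WT 776 also led in Cdkn1a, the cell cycle inhibitor p21, at 5.01, 7.04, 7.99, 125, 24.03 and 25.4 CPM. The part of these cells in the liver results was not tested.

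The titles fall into 2 ranges of numbers, 573 to 601 and 776 to 778, and the labels do not say what the numbers stand for. For 2273 of the 8942 measured genes (25.4%) the 3 livers of one range did not overlap the 3 of the other, 1145 being higher in 573 to 601 and 1128 in 776 to 778. Among the 526 variable genes this held for 204 (38.8%). Car3, carbonic anhydrase 3, was such a gene, at 1409, 1021, 1142, 162, 284 and 291 CPM, and so were Lpin1 and Tat described above. Arrdc3, an arrestin-domain protein, was another, at 275, 173, 72.2, 40.2, 39.9 and 48.1 CPM. What separates the ranges cannot be told apart from the mice themselves. Taking the spread within each range and pooling it, 378 genes were variable, 344 of them among the 526.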

How the data were processed

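Raw counts of fragments per gene name were deposited in 1 table for all libraries. The authors made them with featureCounts 1.5.0-p2 over the exons of GENCODE M8, counting read pairs, with no option for strand, multiply mapped reads or duplicates, per the file headers. STAR, DESeq2 and mm10 are named in the submitters' processing notes, without versions, and positions of genes follow mm10 as deposited. The deposited length of each gene, another value per gene, is the sum of its annotated exonic bases, per the file headers.

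The 6 WT libraries alone entered the analysis, which used Python 3.11.15, edgeR 4.0.16 and R 4.3.3. Shares are percent of the library's counts, and length-scaled shares are counts over length as percent of the library's sum. CPM were scaled by TMM over the 6 libraries, with a prior count of 2 for log2 CPM. Spread was taken over the 8942 genes with a mean of at least 5 CPM, called variable at an SD of at least 0.5 and stable at most 0.1. No groups were compared, since a single group has no contrast, and the 1 test applied was Dixon's, for a library far from the other 5. The script was tested on simulated data. All columns of counts matched a sample, so 0 were left unmapped.

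There were 41 function lists and 13 marker lists. Named by rule were the 3 markers, the 20 largest shares on each scale, the 20 most and 15 least variable genes, and the leading, most and least variable member of each list, unnamed gene models passed over. The lists and this rule were chosen with earlier results of these data known, and other genes were named after their values were seen. Some list members are not reported here by name. Promoters are from RefSeq on GRCm38.p6. Biotypes and transcript lengths come from a later GENCODE release than the authors', which matched 44145 of the 46882 gene names.

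Alternatives were DESeq2 1.42.0 size factors, library totals, other filters and prior counts, counting variance taken out, counts thinned to the shallowest library, edgeR's tagwise variation, other totals and lengths, and leaving out each library. Leaving out WT 590 and WT 601, with or without WT 776, and using each range of title numbers alone were added after seeing the data.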

Additional observations from a re-analysis of the deposited data

Results flagged for a closer look

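Values were taken as log2 CPM for each named gene, and as the level on that scale for each list. The gap of the most extreme library to its nearest neighbour was divided by the range of the 6 libraries. A ratio past Dixon's 95% critical value was taken as a library far from the others. Chance alone would give about 1 in 20 groups, and 10 of 172 genes and 1 of 51 lists passed. In every case the extreme library was the lowest. A log2 scale widens gaps between low values relative to gaps between high ones, so this side can depend on the scale. The ratios are given on the log2 scale only.

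WT 776 was far below the others in Cyp2e1 (gap of 0.715 of the range), with 7974 CPM against 10432 CPM in the next lowest, in Serpina12 (0.751) and in mt-Rnr1, the small mitochondrial rRNA (0.743), with 283 CPM. The level of the 2 mitochondrial rRNAs together was also lowest there (0.684). WT 573 was far below in Herpud1 (0.805), with 334 CPM, and in Abcc2, a canalicular export pump (0.732), with 469 CPM against 597 CPM in the highest. WT 590 was far below in Fabp2, intestinal fatty acid binding protein (0.780), with 38.8 CPM, and in Hspb1, a small heat shock protein (0.688), with 5.19 CPM. WT 601 was the lowest in Znrf3, a ubiquitin ligase that acts on Wnt receptors (0.686), and in the RNA-binding protein Hnrnph1 (0.680). WT 777 was the lowest in Pdgfrb, a stellate cell receptor (0.671).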

How the results depend on the processing

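The 526 variable genes became 1087 with a mean of at least 1 CPM, 277 with at least 20 CPM and 5603 with no filter on low counts. They were 309 within WT 776 to 778 alone and 330 without WT 590, WT 601 and WT 776, and 478 to 598 when each library was left out in turn. Under DESeq2 size factors the count was 529 and under library totals 554. The 1311 stable genes became 2006 with counting variance taken out, 2014 with the spread pooled within the ranges of title numbers, 2213 within WT 573 to 601 and 3888 within WT 776 to 778. They were 2958 without WT 590 and WT 601, 3674 without WT 776 as well, 0 by edgeR's tagwise biological coefficient of variation, which shrinks each gene toward the common trend, and 1302 to 2004 when each library was left out, the highest without WT 601. Fewer libraries give a noisier SD, so counts from 3 or 4 libraries are not on the same footing as those from 6. The 140 and 59 genes that hold 50% of fragments and of the length-scaled pool stayed within 1.5 times under every alternative run. Of 7179 recomputed values of single genes and lists, 1135 moved by more than their SD, between livers for shares and by the jackknife over livers for spreads, and 6044 did not. The sign of a list level differed between scalings only where the level under TMM was less than 0.06 in size. Below 10 CPM counting error limits the spread, and the length scale limits any comparison of levels between genes. No paired analysis was possible because 1 genotype was described and no library number is shared between groups.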

Other observations

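Iron, copper and zinc handling had 7 of 19 measured members variable, against 5.88% of all genes. The count was 5 of 19 without WT 590 and WT 601, and 1 of 19 (5.26%) without WT 776 as well, against 3.69% of all genes. Id1, a target of BMP signalling, was at 13.4, 3.65, 7.63, 35.3, 24.8 and 22.2 CPM, lowest in WT 590, and Slc30a10, a manganese exporter, at 22.1, 6.62, 6.95, 22.7, 25.7 and 21.8 CPM, where WT 590 and WT 601 were under 10 CPM and the others above 20 CPM. Ferritin heavy chain Fth1 was even at 1112, 1089.8, 1299.5, 1299, 1462 and 1424 CPM (SD 0.18), and so was Hfe, the hemochromatosis protein, at 51.1, 54.5, 53.4, 51.3, 52.96 and 57.8 CPM (SD 0.066). Tfrc, the transferrin receptor, was highest in WT 776 at 67.2 CPM and lowest in WT 573 at 27.7 CPM.

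Some single genes outside the lists spanned wide ranges, among the 20 most variable by the rule used. Slc22a7, an organic anion transporter, was at 12.4, 44.7, 43.2, 1.19, 7.30 and 3.53 CPM, highest in WT 590 and WT 601. Krt23, a keratin, was at 10.7, 0.393, 2.04, 9.62, 13.6 and 8.09 CPM, lowest in the same 2 livers. Cxcl9, an interferon-induced chemokine, was at 4.79, 32.7, 1.96, 17.01, 1.74 and 2.72 CPM, high in WT 590 and WT 776 and not in WT 573, the library with the highest level of interferon-stimulated genes. Cyp17a1, a steroid hydroxylase, was chosen after its values were seen, at 24.5, 30.1, 8.03, 117, 24.3 and 21.3 CPM, highest in WT 776.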
